A study of Mus musculus with 19 samples.

Results

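CC chemokine ligands are small secreted proteins, and the 10 described here are those listed in the gene table of sorted retinal microglia under the symbols Ccl2, Ccl7, Ccl8, Ccl12, Ccl24, Ccl3, Ccl4, Ccl5, Ccl6 and Ccl9. Their rows were picked by symbol, from a list drawn up with earlier results of these data known. All 10 were found, and the table held 27299 genes. The samples were microglia from 6 unlasered controls (control) and from 6 samples taken 3 days after laser treatment (CNV d3), in which argon laser burns rupture the membrane under the retina and start choroidal neovascularization, the growth of vessels from the choroid. All mice were 8 weeks old, each lasered eye received 6 burns, and the lasered and control mice carried the same background, named C57BL/6J in the labels and Cx3cr1GFP/+ in the methods. In such mice 1 copy of the fractalkine receptor gene is replaced by a green fluorescent reporter, and the peripheral retina was removed before sorting. The cells were sorted as positive for CD11b and CX3CR1 and negative for Ly6C and Ly6G, which mark monocytes and neutrophils, with CD45 given as positive in the labels and as low in the methods. The sources do not say whether each sample came from separate mice, so p-values measure the spread between these samples.

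CC ligands bind receptors on leukocytes and guide their movement along a gradient of the protein. Ligands of the monocyte chemoattractant group, which include Ccl2, Ccl7 and Ccl12, act through CCR2 and draw monocytes out of the blood, while the macrophage inflammatory group around Ccl3, Ccl4 and Ccl5 attracts monocytes, macrophages and T cells. Microglia are a known source of both groups after injury of the retina or the brain.

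On GRCm38, 9 of the 10 genes lay on chromosome 11 in 2 clusters. The first ran from 82035571 to 82116799 (81.2 kb) and held Ccl2, Ccl7, Ccl12 and Ccl8 in this order, all on the plus strand. The second ran from 83525778 to 83664683 (138.9 kb) with Ccl5, Ccl9, Ccl6, Ccl3 and Ccl4, of which only Ccl4 was on the plus strand. Ccl24 lay apart on chromosome 5 from 135569937 to 135573049 on the minus strand. No exon of the 10 genes overlapped an exon of another gene in this annotation.

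RefSeq promoter sequences on GRCm38.p6 were matched by symbol for 5 of the 10 ligands. Ccl2, Ccl4, Ccl5, Ccl7 and Ccl24 had no entry. The last 100 bases before the start site are shown 5′ to 3′ on the strand of the gene, for the ligand most abundant per kilobase (Ccl12), its neighbour Ccl8 and 3 ligands of the second cluster, and capitals mark every match found there to the motifs searched.
Ccl12 (chr11:82101745-82101844, plus strand): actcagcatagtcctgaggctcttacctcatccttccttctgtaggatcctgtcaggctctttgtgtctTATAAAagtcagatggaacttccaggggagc
Ccl8 (chr11:82115085-82115184, plus strand): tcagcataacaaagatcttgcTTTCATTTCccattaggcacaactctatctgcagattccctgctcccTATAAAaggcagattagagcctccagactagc
Ccl9 (chr11:83578637-83578736, minus strand): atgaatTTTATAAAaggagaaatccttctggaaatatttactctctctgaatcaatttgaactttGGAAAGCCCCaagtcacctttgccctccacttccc
Ccl6 (chr11:83593088-83593187, minus strand): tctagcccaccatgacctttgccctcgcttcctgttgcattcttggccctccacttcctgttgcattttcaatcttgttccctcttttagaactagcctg
Ccl3 (chr11:83649379-83649478, minus strand): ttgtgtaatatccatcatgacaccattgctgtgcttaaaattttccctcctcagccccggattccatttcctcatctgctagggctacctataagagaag
In the 250 bases before the start, searched on both strands, a TATA box (TATAAA) was found in 3 of the 5 promoters. In Ccl12 it lay from -31 to -26 and in Ccl8 from -32 to -27, counted from the last base before the start as -1. In Ccl9 the matches lay farther upstream, with a pair on opposite strands that overlap between -94 and -87 and another from -224 to -219. Of all 32851 promoters in the same window, 12.4% held a TATA box. A match to the NF-kB consensus was present in Ccl9 alone, from -35 to -26 on the opposite strand. Anywhere in the window, on either strand, 7.25% of all promoters held one. An interferon response element, searched as GAAANGAAA or with 1 more N in the middle, was present in Ccl8 alone, from -79 to -71 on the opposite strand. Anywhere in the window, on either strand, 5.38% of all promoters held one. Ccl3 and Ccl6 held none of these letters in the window.

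Differentially expressed genes (DEG) were those with an absolute log2 fold change (log2FC) above 1.5 and a Benjamini-Hochberg adjusted p (padj) below 0.05, from limma over all genes on log2(normalized count + 1), where the normalized count is the read count divided by a size factor of the sample. The sequencing depth differed between the groups. Control samples held 10963178 to 22335233 reads on genes and CNV d3 samples 23532260 to 29523018, so that 1 read was worth 1.00 to 1.99 normalized counts in control and 0.739 to 0.895 at CNV d3. All 12 microglial markers were detected, and their summed normalized count ranged from 1377634 to 1548937 in control and from 774057 to 1155502 at CNV d3, while P2ry12 was a decreased DEG. Monocyte markers summed to 224 to 1105 in control and 1298 to 4557 at CNV d3, and 5 of 10 were increased DEG (Ly6c2, Plac8, Ccr2, S100a4 and Ms4a4c), with Ly6c2 and Chil3 among those at 0 in all control samples. Dendritic cell markers summed to 23.8 to 515 against 366 to 2768 with 5 of 8 increased. Border macrophage markers summed to 2475 to 4274 against 3270 to 4451 with 3 of 9 increased (Cbr2, Folr2 and Colec12). Their genes, described here after their values were seen, did not move together. Stab1, the largest part of the sum, had means of 2058 and 3059 (padj = 0.0107, limma). Mrc1 had means of 350 and 113 (log2FC = -1.44, padj = 0.233, limma). Lyve1 and Ms4a7 also had a log2FC below 0, and Cd163 and Pf4 one above 0, all without passing. Over all genes, 3.91% were increased and 1.07% decreased DEG. Neutrophil markers stayed at or below 22.3 and T and NK cell markers at or below 38.5 in every sample, with 0 of 7 called in each list. Among 12 immediate early and dissociation genes, Fos and Fosb were increased DEG, and the sums were 10171 to 15327 and 11163 to 17502. The mean of log2(normalized count + 1) over these 12 genes was 6.53 to 7.75 in control and 7.87 to 8.77 at CNV d3, without overlap. Photoreceptor markers reached 6911 in control and 12461 at CNV d3 with 0 of 8 called, and 2 of 8 glial markers (Dkk3 and Vim) were increased. Another glial marker, Slc1a3, named here after its values were seen, was lower by padj alone (log2FC = -0.67, padj = 0.0208, limma). Of pigment epithelial markers 0 of 6 and of vessel markers 0 of 7 were called. The part of these cells and of dissociation in the ligand results was not tested, and in bulk RNA a change in the number of cells of a type cannot be told apart from a change of RNA per cell.

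At CNV d3, 3 of the 4 ligands of the first cluster were higher by padj (Ccl2, Ccl12 and Ccl8), and 1 of the 5 of the second was lower (Ccl6). By the DEG rule 2 of the 10 ligands were increased DEG, Ccl2 and Ccl8, against 3.91% of all genes. None of the 10 was a decreased DEG, against 1.07% of all genes. By padj alone 3 ligands were higher, Ccl2, Ccl8 and Ccl12, against 8.29% of all genes, and 1 was lower, Ccl6, against 4.57%. The remaining 6 passed neither. For 1 ligand, Ccl2, the 6 CNV d3 values were all higher than any control value, against 4.64% of all genes, and for 0 ligands were they all lower, against 2.83%. The log2FC was above 0 for 7 ligands and below 0 for 3, with a median of 0.87 over the 10 and of 0.15 over all genes.

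**Figure D1:**
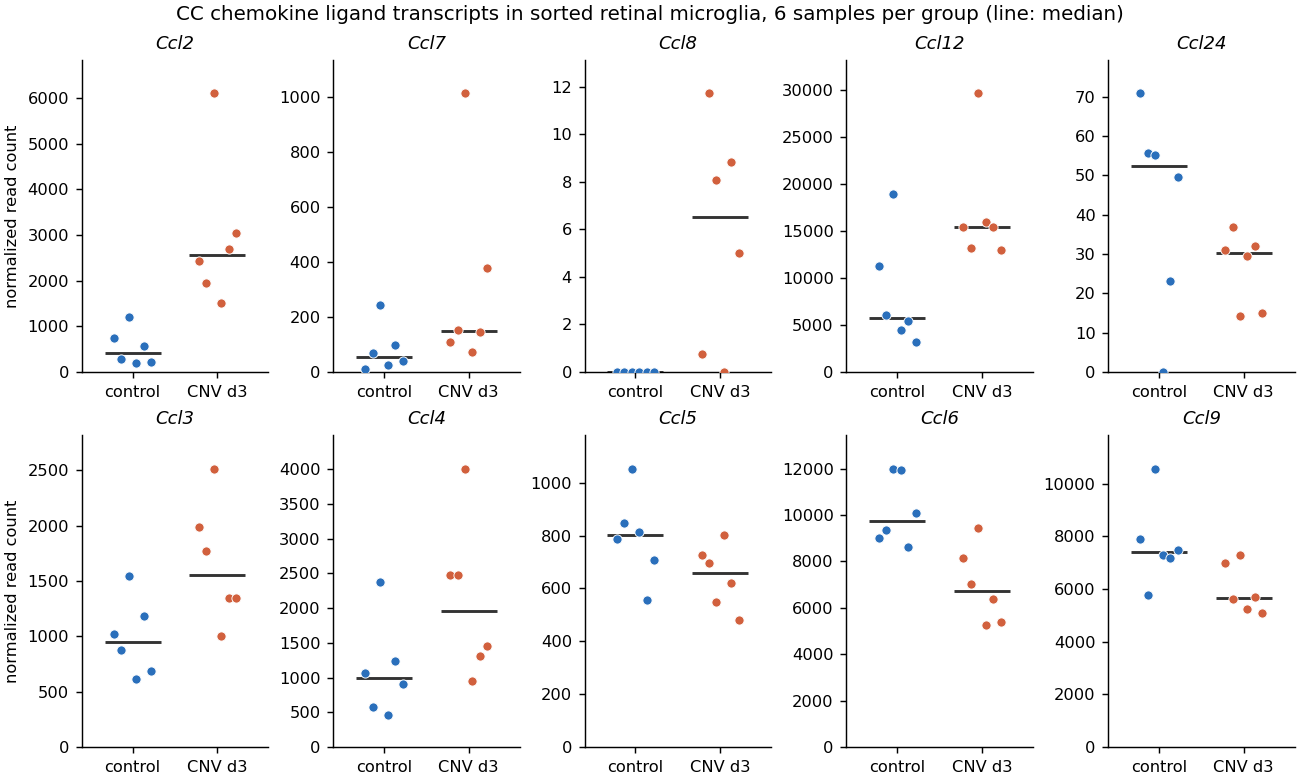
Normalized read counts (y axis, linear, each panel with its own scale) of the 10 ligands in the 6 control (blue) and 6 CNV d3 samples (orange), in the order of the replicate numbers from left to right, with a line at the median. Ccl2 is the ligand whose groups do not overlap, with 1201 as the highest control and 1521 as the lowest CNV d3 value, while Ccl8 is at 0 in all control samples.

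Ccl2, the main attractant of CCR2-bearing monocytes, was an increased DEG. Its normalized counts ranged from 197 to 1201 with a median of 416 in control and from 1521 to 6105 with a median of 2566 at CNV d3. Every CNV d3 sample thus exceeded every control sample. The means were 533 ± 393 and 2957 ± 1634 (SD, n = 6 each), and the log2FC was 2.64 (SE 0.43, 95% interval 1.72 to 3.57, padj = 0.000934, limma). When all samples were thinned to the same number of reads, the log2FC was 2.73 (padj = 0.00508, limma). In CNV d3 replicates 1 to 6 the normalized counts of Ccl2 were 2440, 1938, 6105, 1521, 2692 and 3046, and the sums of monocyte markers 1298, 2341, 4557, 1484, 2885 and 4079, with replicate 3 the highest in both. By the mean of log2(normalized count + 1) over these markers, replicate 6 was the highest (6.35), ahead of replicate 3 (6.12). The part of monocytes in the Ccl2 result was not tested.

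Ccl7, which also signals through CCR2, spread more widely. In control it ranged from 11.8 to 244 normalized counts with a median of 52.3, and at CNV d3 from 71.0 to 1013 with a median of 149. Only CNV d3 replicates 3 and 6 exceeded every control. The means were 80.7 ± 85.8 and 311 ± 360 (SD, n = 6 each), with a log2FC of 1.93 (SE 0.72, 95% interval 0.38 to 3.47) that did not pass over all genes (padj = 0.101, limma). By DESeq2 on the recovered reads Ccl7 was an increased DEG (log2FC = 1.94, padj = 0.0294), by edgeR it was not (padj = 0.0825). On this gene by itself, a two-sided exact permutation test over all labellings of the samples gave p = 0.0433, not adjusted for other genes.

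Ccl12 is a CCR2 ligand of the mouse. Its normalized counts ranged from 3223 to 18921 with a median of 5731 in control and from 12918 to 29584 with a median of 15368 at CNV d3. Among the controls replicates 3 and 1 were high, with 18921 and 11214, and the other 4 were at or below 6056. All CNV d3 samples lay above 5 of the 6 controls, but only replicate 3 lay above control replicate 3. The means were 8206 ± 5925 and 17062 ± 6259 (SD, n = 6 each), and the log2FC was 1.26 (SE 0.35, 95% interval 0.51 to 2.01, padj = 0.027, limma), below the threshold of 1.5. Without control replicate 3 the log2FC was 1.56 (padj = 0.00697, limma) and Ccl12 was an increased DEG. In 10 of the 12 fits with 1 sample left out padj was not below 0.05, with 0.116 as the highest value, without CNV d3 replicate 3. Nor was it below 0.05 by DESeq2, by limma without a variance trend or by limma in thinned reads, with values up to 0.0845.

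Ccl8, in mice a ligand of CCR8, was detected in CNV d3 samples only, at a very low level and with all controls sequenced less deeply. It had 0 reads in all 6 controls and 1, 14, 9, 0, 11 and 6 reads in CNV d3 replicates 1 to 6, or 41 reads in all. Thus 2 of the 6 CNV d3 samples, replicates 1 and 4, held no more than 1 read. The mean at CNV d3 was 5.72 ± 4.67 normalized counts (SD, n = 6), at least 10.1-fold higher than the 0.567 that 3 reads over the whole control group would give, counting error only. Ccl8 was an increased DEG (padj = 0.0223, limma), but not when CNV d3 replicate 2, 3, 5 or 6 was left out, with padj up to 0.0583, nor in reads thinned to the shallowest sample (padj = 0.0661). Its lowest CNV d3 samples, replicates 1 and 4, were also those with the lowest sums of monocyte markers, 1298 and 1484. The order differed in the others, with 14 reads in replicate 2 (sum 2341) and 6 reads in replicate 6 (sum 4079). With the mean log2 level of these markers, r was 0.79 and rho 0.43 (exact permutation p = 0.0569 and 0.419). The part of monocytes in the Ccl8 result was not tested.

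Ccl24, an attractant of eosinophils through CCR3, was low, with 0 to 66 reads in control samples and 16 to 44 at CNV d3. Control samples ranged from 0 to 70.9 normalized counts with a median of 52.4, and CNV d3 samples from 14.3 to 36.8 with a median of 30.2. Control replicate 4 was at 0 and replicate 5 at 23.1, while the other 4 controls exceeded every CNV d3 value. The log2FC was 0.02 (SE 0.94, 95% interval -1.99 to 2.02, padj = 0.992, limma, exact permutation p = 0.998) and turned to -0.92 without control replicate 4, so that no direction can be given.

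Ccl3 and Ccl4, attractants of macrophages and T cells, are neighbours in the second cluster. Ccl3 ranged from 611 to 1545 normalized counts in control (median 948) and from 1002 to 2514 at CNV d3 (median 1556). The groups overlapped, with 3 of the 6 CNV d3 samples above all controls. Its log2FC of 0.76 (SE 0.25, 95% interval 0.23 to 1.28) did not pass (padj = 0.0577, limma), and the exact permutation test gave p = 0.0325 before adjustment. By DESeq2 padj was 0.0189, by edgeR 0.0393 and under the filter on low values 0.0326, with log2FC of 0.75, 0.76 and 0.76.

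Ccl4 ranged from 463 to 2376 normalized counts in control (median 987) and from 952 to 4010 at CNV d3 (median 1962). CNV d3 replicates 1, 2 and 3 lay above all controls and replicates 4, 5 and 6 among them. The log2FC of 0.98 (SE 0.39, 95% interval 0.15 to 1.81, padj = 0.123, limma) did not pass, and the exact permutation test gave p = 0.0563.

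Ccl5, a ligand best known from T cells, had 558 to 1054 normalized counts in control (median 801) and 480 to 801 at CNV d3 (median 659). Only 2 CNV d3 samples, replicates 3 and 6, lay below all controls. The log2FC was -0.29 (SE 0.17, 95% interval -0.66 to 0.07, padj = 0.324, limma, exact permutation p = 0.104), so that the interval excluded a decrease as large as the DEG threshold.

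Ccl6 and Ccl9, CCR1 ligands of rodents that are made by myeloid cells, followed Ccl12 as the most abundant ligands per kilobase in control. Ccl6 ranged from 8622 to 12006 normalized counts in control (median 9732) and from 5239 to 9452 at CNV d3 (median 6707). In 5 of the 6 CNV d3 samples it lay below all controls, and replicate 3 lay among them. Ccl6 was lower at CNV d3, with means of 10172 ± 1475 and 6940 ± 1638 (SD, n = 6 each) and a log2FC of -0.57 (SE 0.14, 95% interval -0.88 to -0.27, padj = 0.0153, limma), which is less than the DEG threshold. In 6 of the 12 fits with 1 sample left out, those without control replicate 3 or 4 or CNV d3 replicate 2, 4, 5 or 6, padj lay at or above 0.05, up to 0.0637.

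Ccl9 ranged from 5751 to 10570 normalized counts in control (median 7397) and from 5093 to 7273 at CNV d3 (median 5645). It lay below all controls in 4 of the 6 CNV d3 samples, all but replicates 1 and 3. The log2FC of -0.35 (SE 0.13, 95% interval -0.64 to -0.07) did not pass over all genes (padj = 0.101, limma), with p = 0.0195 in the exact permutation test before adjustment. DESeq2 gave padj = 0.0496 and edgeR 0.0986.

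**Figure D2:**
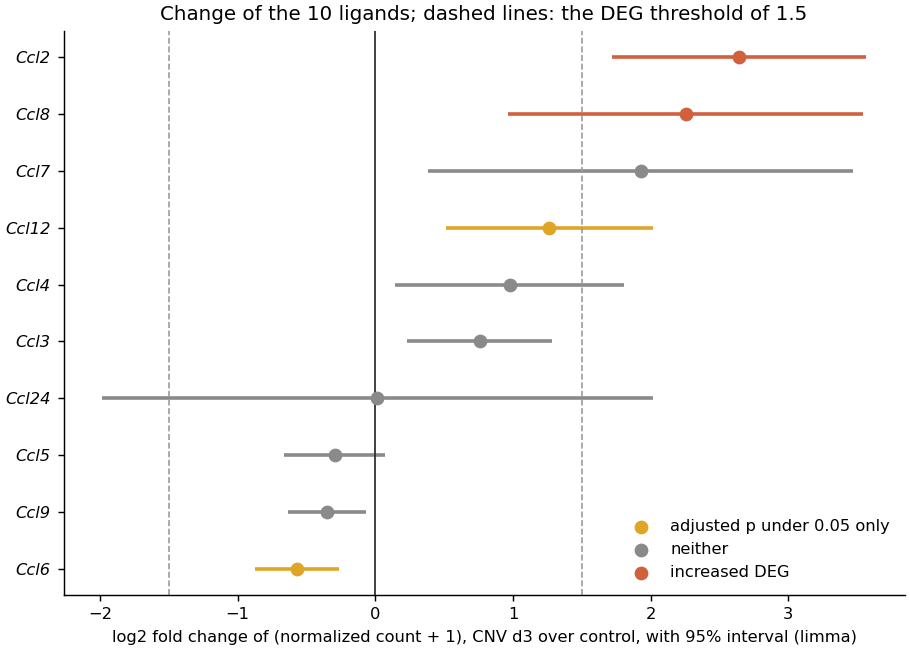
Log2 fold change of (normalized count + 1) at CNV d3 over control (x axis) with its 95% interval from limma for each ligand, coloured by call, with dashed lines at the DEG threshold of 1.5. The interval of Ccl2 lies wholly beyond the threshold (1.72 to 3.57), those of Ccl6 and Ccl9 lie wholly below 0, and that of Ccl24 spans both thresholds.

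To compare the ligands with each other, normalized counts were divided by the length of all exons of a gene together. In control the order per kilobase was Ccl12 at 15281 ± 11033, Ccl6 at 5667 ± 822, Ccl9 at 2528 ± 520, Ccl4 at 1675 ± 1041, Ccl3 at 1287 ± 450, Ccl5 at 828 ± 171 and Ccl2 at 468 ± 345 (SD, n = 6). Ccl7 at 101 ± 107, Ccl24 at 32.7 ± 20.1 and Ccl8 at 0 followed. Neighbours differed by less than the larger of their SDs for Ccl12 with Ccl6, Ccl9 with Ccl4, Ccl4 with Ccl3 and Ccl7 with Ccl24. Among 16060 protein-coding genes with a length, Ccl12 ranked 42, Ccl6 126 and Ccl2 1960.

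At CNV d3 Ccl12 stood at 31772 ± 11656 per kilobase and ranked 21, followed by Ccl6 at 3867 ± 913, Ccl4 at 3203 ± 1699, Ccl2 at 2599 ± 1436, Ccl3 at 2166 ± 710 and Ccl9 at 1965 ± 303. Ccl2 thus moved from rank 1960 to rank 314 among the protein-coding genes. From Ccl6 to Ccl9, neighbours in this order differed by less than the larger of their SDs. Ccl5 at 673 ± 124, Ccl7 at 388 ± 450, Ccl24 at 20.4 ± 7.31 and Ccl8 at 11.2 ± 9.13 were the lowest.

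Shares of the ligand transcripts were computed in each sample. Per kilobase, Ccl12 made up 50.6 ± 12.3% of the sum of the 10 ligands in control and 67.9 ± 4.61% at CNV d3 (SD, n = 6). The share of Ccl2 was 1.55 ± 0.58% in control and 5.41 ± 1.51% at CNV d3, with 0.87 to 2.26% against 3.40 to 7.37% in single samples. The share of Ccl6 was 23.3 ± 8.62% against 8.52 ± 1.39%, and that of Ccl9 was 6.49 to 14.2% in single control samples and 3.01 to 5.12% at CNV d3.

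For all of Ccl2, Ccl6 and Ccl9 the shares in single samples did not overlap between the groups. Ccl3 (4.88% and 4.71%) and Ccl4 (5.96% and 6.70%) kept similar mean shares, and the share of Ccl5 was 3.30% in control and 1.56% at CNV d3. These shares are a description with no test, and they depend on the lengths used.

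The 4 ligands of the first cluster together made up 52.4 ± 12.7% in control and 74.1 ± 4.66% at CNV d3, and the 5 of the second 47.4 ± 12.7% and 25.9 ± 4.65%. The summed level per kilobase of the second cluster was 11985 ± 2450 in control and 11873 ± 3535 at CNV d3, while that of the first was 15851 ± 11445 and 34770 ± 13371 (SD, n = 6). Within a sample the level of Ccl12 was 1.07 to 5.27 times that of Ccl6 in control and 6.28 to 10.5 times at CNV d3, ranges that did not overlap. The level of Ccl12 over that of Ccl2 was 20.4 to 47.5 in control and 8.99 to 22.2 at CNV d3.

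**Figure D3:**
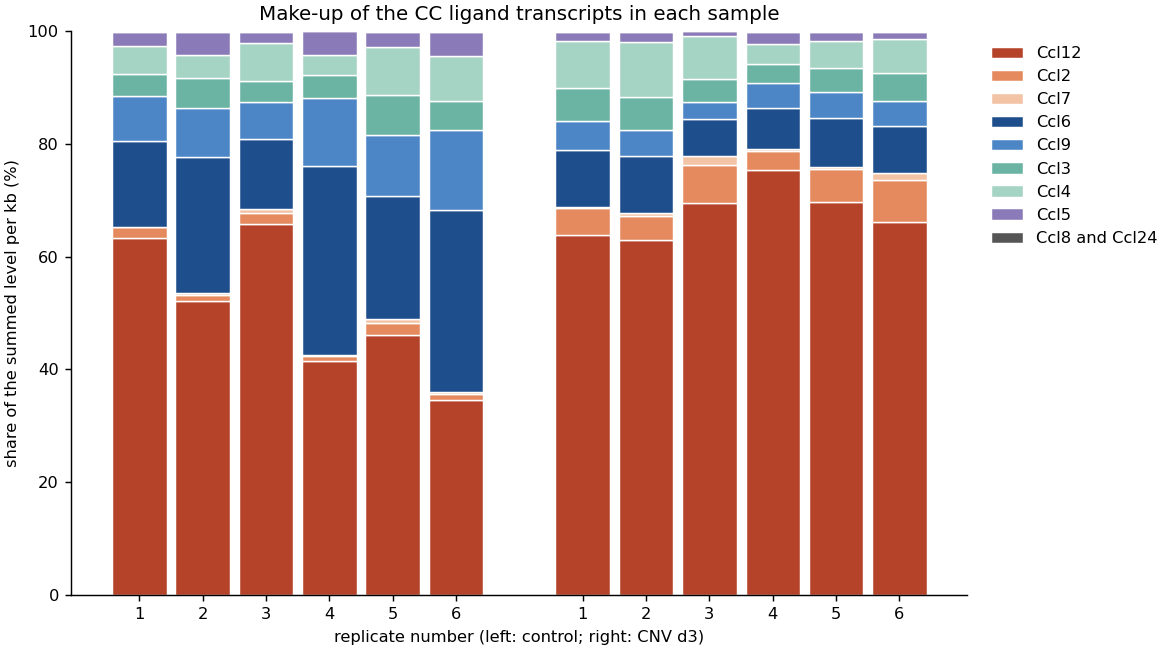
Share of each ligand in the summed level per kb of the 10 ligands (y axis, %) in each control (left) and CNV d3 sample (right), as stacked bars by replicate number. Ccl12 takes 34.5 to 65.8% in control and 62.9 to 75.4% at CNV d3, and the blue segments of Ccl6 and Ccl9 are smaller in every CNV d3 sample than in any control.

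The same sample was often the highest of its group. Control replicate 3 was the highest control for 8 of the 10 ligands (all but Ccl8 and Ccl24), and CNV d3 replicate 3 was the highest of its group for 7 (all but Ccl5, Ccl8 and Ccl24). These samples carry the same number. Over genes with a mean of at least 100 normalized counts, deviations of same-numbered samples from their group means correlated at -0.0526 to 0.0707. Replicate 3 had the highest of these values, and control replicate 3 correlated best with CNV d3 replicate 3. For the other controls, the sample of the same number ranked from 3 to 6 among the 6 CNV d3 samples. The labels name no pairing. CNV d3 replicate 3 also had the highest sum of monocyte markers (4557) and the lowest of microglial markers (774057).

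Within control the 3 pairs with the highest Pearson correlation of log2(normalized count + 1) over the 6 samples were Ccl2 with Ccl3 (r = 0.94, Spearman rho = 0.94), Ccl2 with Ccl12 (r = 0.90, rho = 0.89) and Ccl2 with Ccl4 (r = 0.89, rho = 0.89). Within CNV d3 they were Ccl3 with Ccl4 (r = 0.99, rho = 0.94), Ccl3 with Ccl6 (r = 0.96, rho = 1) and Ccl6 with Ccl9 (r = 0.95, rho = 0.89). By exact permutation none of the 36 pairs in control and none of the 45 at CNV d3 passed Benjamini-Hochberg adjustment, and the adjusted p of these pairs was 0.15 in control and 0.0781 at CNV d3 for r. Unadjusted, 5 and 9 pairs had p below 0.05. With the 2 samples at the greatest distance from the median removed, r was 0.84, 0.81 and 0.67 for the control pairs and 0.96, 0.91 and 0.93 for the CNV d3 pairs.

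Correlations with the mean log2 level of the monocyte, border macrophage and immediate early lists within CNV d3 also did not pass adjustment over the 30 relations computed, and 8 had an absolute r above 0.80. With border macrophage markers these were Ccl3 (r = 0.90, rho = 0.89), Ccl4 (r = 0.88, rho = 0.94), Ccl6 (r = 0.82, rho = 0.89) and Ccl9 (r = 0.81, rho = 0.66). With immediate early and dissociation genes they were Ccl6 (r = 0.82, rho = 0.77) and Ccl4 (r = 0.82, rho = 0.71). With monocyte markers they were Ccl7 (r = 0.82, rho = 0.89) and, in the other direction, Ccl5 (r = -0.92, rho = -1). Exact permutation p of r was 0.00694 for the last and 0.0139 to 0.0917 for the others, with adjusted p between 0.181 and 0.257, and for rho between 0.0833 and 0.477. With the 2 most distant samples of each score removed, r was 0.87, 0.89, 0.69 and 0.67 for the border macrophage relations, 0.50 and 0.74 for the immediate early ones, and 0.90 and -0.96 for the monocyte ones, in the same order.

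The receptors and other partners of the ligands were looked at in the same fit. Of 10 CC chemokine receptors 9 were in the table, and 3 were increased DEG and none decreased, against 3.91% and 1.07% of all genes. Their median log2FC was 0.37, against 0.15 over all genes. Ccr2, the receptor of Ccl2, Ccl7 and Ccl12 and itself a monocyte marker, ranged from 0 to 95.3 normalized counts in control and from 120 to 1351 at CNV d3, without overlap. Its log2FC was 5.60 (SE 1.15, padj = 0.00455, limma).

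Ccr7, which guides dendritic cells to lymph nodes, was at 0 in 4 controls and at most 30.1 in the others, and reached 375 to 1376 in 5 CNV d3 samples and 0 in replicate 4 (log2FC = 6.89, SE 1.57, padj = 0.00895, limma). Without CNV d3 replicate 6 its padj was 0.0508. Ccr10 rose from 0 reads in all controls to 29 reads in all at CNV d3, at least 7.12-fold over the same floor (padj = 0.0321, limma), and in 10 of the 12 fits with 1 sample left out it was no longer a DEG.

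Ccr1, the receptor of Ccl6 and Ccl9 and a receptor of Ccl3, is named here after its values were seen. It had 1966 ± 347 normalized counts in control and 3109 ± 2266 at CNV d3 (SD, n = 6 each, log2FC = 0.37, 95% interval -0.43 to 1.16, padj = 0.571, limma). Of the 4 atypical and accessory receptors none was called (median log2FC -0.11).

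Of 15 other CC ligands 5 were in the table. Their median log2FC was 0.35, or 0 when the 2 genes without control reads were set to their bound, against 0.15 over all genes. Of the 5, none was a decreased DEG (1.07% of all genes) and 1 was an increased DEG (3.91%). This was Ccl22, a product of dendritic cells and macrophages that binds CCR4, with 3 reads over the control group and 0 to 738 normalized counts at CNV d3 (padj = 0.0271, limma). The ratio of the means was 315, with a 95% counting interval of 108 to 1529 from the control reads. Its call was lost in 10 of the 12 fits with 1 sample left out. Ccl25, known from the thymus and the gut and named here after its values were seen, was lower at CNV d3 without overlap, with 254 to 758 normalized counts in control and 167 to 248 at CNV d3 (log2FC = -1.08, SE 0.26, padj = 0.0132, limma), which is less than the DEG threshold.

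Of 8 enzymes that cleave CC ligands 6 were in the table, and 2 were increased DEG and none decreased, against 3.91% and 1.07% of all genes. The median log2FC was 1.88, or 2.40 with the gene at 0 in control set to its bound, against 0.15 over all genes. Dpp4, which trims the N terminus of several chemokines and is also expressed by some dendritic cells, had 2 reads over the control group and 35.5 to 584 normalized counts at CNV d3 (padj = 5.41e-05, limma). Mmp9, a gelatinase, had 0 reads in control and 105 reads over the CNV d3 samples, at least 25.9-fold over the floor (padj = 0.0354, limma), and lost its call in 10 of the 12 fits with 1 sample left out.

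Of 16 cytokines and NF-kB pathway genes listed as inducers of the ligands or feedback inhibitors of NF-kB, 14 were in the table. None was increased and 1 was decreased, against 3.91% and 1.07% of all genes, with a median log2FC of -0.02. The decreased DEG was Il6, with 172 to 288 normalized counts in control and 5.85 to 64.4 at CNV d3 (log2FC = -3.07, SE 0.52, padj = 0.00116, limma), without overlap. By padj alone 4 of the 14 were higher, against 8.29% of all genes, and 4 were lower, against 4.57%. Those lower included Nfkbia (log2FC = -0.88, padj = 0.000356, limma), while Tnfaip3 was not called (log2FC = -0.34, padj = 0.246, limma). Both encode feedback inhibitors of NF-kB rather than inducers, and are named here after their values were seen.

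**Figure D4:**
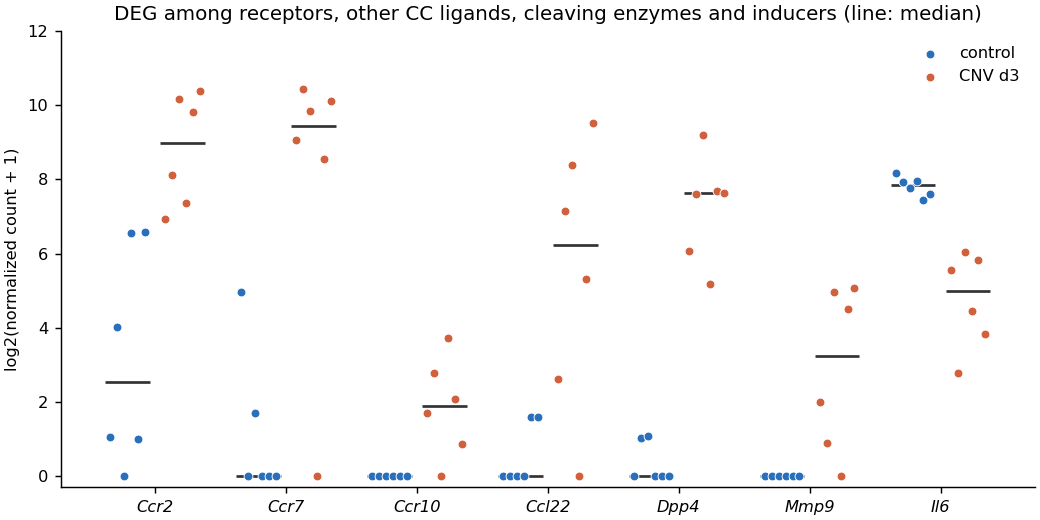
Levels of the 7 DEG among CC receptors, other CC ligands, cleaving enzymes and inducers as log2(normalized count + 1) (y axis) in control (blue) and CNV d3 samples (orange), with a line at the median. Ccr2, Dpp4 and Il6 do not overlap between the groups, while CNV d3 replicate 4 lies at 0 for Ccr7, Ccl22 and Mmp9.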

How the data were processed

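Bulk RNA was measured in 6 control and 6 CNV d3 samples, grouped by the labels, 7 of them listed in 2 parts and counted once. Full-length cDNA was amplified by PCR without molecular identifiers. The authors mapped reads with STAR 2.7.2b (Gencode M25), merged 2 BAM files per sample, counted them with featureCounts 1.6.4 at default parameters, which ignore strand, and removed genes without reads. The deposited signal of a gene is its read count divided by a size factor from DESeq2 1.22.2. Every value of a sample equalled a whole number of times its smallest value within 0.001 reads (100% of values), so reads were recovered. The deposited fold changes, p-values and group means were not used.

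The main test was limma 3.58.1 in R 4.3.3 on log2(normalized count + 1) with a variance trend and no filter, over 27299 genes. A fold change on this scale understates the change of low genes. On recovered reads, edgeR 4.0.16 with TMM (839 increased and 281 decreased DEG) and DESeq2 1.42.0 (908 and 572) were alternatives, against 1068 and 293 with limma. All were tested on simulated data. Other alternatives were pseudocounts of 0.5 and 10, a filter of 10 normalized counts in 6 samples, thinned reads, no variance trend, a replicate block and leaving out each sample. Single genes were also compared by exact permutation over all labellings and correlations over all pairings of the 6 samples. Replicates of a group differed by more than sampling noise (chi-square per degree of freedom of 29.6 or more). Floors of 3 reads cover counting error only. Coordinates and lengths came from Gencode M21 on GRCm38, with 27238 genes matched by identifier. Motifs were searched in RefSeq promoters.

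The ligands and the gene lists were chosen with earlier results of these data known. All 10 ligands, the DEG of each pathway list, the counts and sums of each marker list and the 3 ligand pairs with the highest r per group are named, and other genes are said to have been chosen after their values were seen. Some genes of the lists are not reported here.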

Additional observations from a re-analysis of the deposited data

Results flagged for a closer look

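In 19 groups of 6 values with a spread (10 ligands in 2 conditions, without Ccl8 in control), Dixon's test at the 95% level found 1 sample far from the others in 4. They were Ccl2 in CNV d3 replicate 3 with 6105 normalized counts, Ccl7 in control replicate 3 with 244, Ccl7 in CNV d3 replicate 3 with 1013 and Ccl12 in CNV d3 replicate 3 with 29584. Chance alone gives about 1 such value in 20 groups, and the ligands are not independent of each other. CNV d3 replicate 3 also had the highest summed monocyte markers of all samples (4557) and control replicate 3 the highest of the controls (1105). This order depended on the scale. By the mean of log2(normalized count + 1) over these markers, CNV d3 replicate 6 was the highest (6.35, against 6.12 in replicate 3). Among the controls it was replicate 1 (3.17, against 3.09 in replicate 3). The part of these cells in the high values was not tested.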

How the results depend on the processing

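Over 22 alternatives the log2FC of Ccl2 stayed between 2.40 and 2.94 with padj of at most 0.0111, and Ccl2 was an increased DEG in every one. The number of ligands called increased, 2, was 1 under the filter of 10, under a pseudocount of 10 and in thinned reads, and 1 to 3 with 1 sample left out. It was 1 without CNV d3 replicate 2, 3, 5 or 6, where Ccl8 was lost. By padj alone 1 ligand was lower. Ccl24 turned from 0.02 to -0.68 by DESeq2, -0.65 by edgeR, -0.30 with a pseudocount of 10 and -0.34 in thinned reads, and ranged from -0.92 to 0.31 with 1 sample left out. The cause of these changes was not tested. Over all genes, DESeq2 gave 572 decreased DEG, padj alone 2264 higher and 1247 lower genes, and a pseudocount of 10 gave 600 increased DEG, against 1068 and 293. Of the other CC pathway genes 6 were increased and 1 decreased. They were 3 under the filter, a pseudocount of 10 and thinned reads, 3 to 6 with 1 sample left out, and 12 higher and 6 lower by padj alone. Without division by length the mean shares were 7.57% for Ccl2, 18.7% for Ccl6, 16.4% for Ccl9, 44.9% for Ccl12 and 0.0762% for Ccl24 at CNV d3, and 3.35% for Ccl3, 3.57% for Ccl4, 36.1% for Ccl6, 26.7% for Ccl9 and 25.4% for Ccl12 in control. By counts without length, Ccl6 rather than Ccl12 was thus the largest in control. The deviations of same-numbered samples correlated at -0.0526 to 0.0707. In 1 of 6 cases, that of replicate 3, a sample correlated best with its own number. With the replicate block 3 ligands were increased, adding Ccl7 (padj = 0.0191), as with DESeq2 (padj = 0.0294), and over all genes 921 and 215 DEG. The log2FC of Ccl8 exceeded that of Ccl2 by DESeq2 (4.74 against 2.47), edgeR (5.61 against 2.48) and a pseudocount of 0.5 (2.95 against 2.65). Controls were shallower, so a transcript as low as Ccl8 was less detectable in them.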
